A study of Homo sapiens with 15 samples.

Results

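The libraries described here come from HaCaT cells, an immortalised line of human skin keratinocytes, given Li-doped Ag2S nanoparticles (NPs) at 160 μg/mL for 24 h, and they are compared with untreated HaCaT cells. The members are the 3 libraries with this label, of 15 in the study, and the group was picked because earlier results of these data placed it furthest from untreated cells. The other libraries are 3 of untreated cells (the control), 3 of cells given undoped Ag2S NPs at 160 μg/mL, 3 of cells given undoped Ag2S NPs at 320 μg/mL and 3 of cells given Li-doped Ag2S NPs at 320 μg/mL. Ag2S is a semiconductor that emits near-infrared light, and the study asked what such particles do to collagen synthesis in skin cells. According to the methods the particles carried a coat of 3-mercaptopropionic acid. Control cells are labelled untreated, and whether they were given a vehicle is not stated in the sources used here. No gene in the table shows which particle or dose a library was given, so these rest on the labels alone. All groups are 1 cell line with no genetic change. Whether the libraries of a group came from separate cultures is stated neither in the labels nor in the methods, so p-values measure the spread between these libraries. Below, "treated cells" are the cells given Li-doped Ag2S NPs at 160 μg/mL.

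Keratinocytes renew the epidermis by dividing in its basal layer and differentiating above it, and after wounding they change keratins, secrete proteases and matrix and send growth factors to each other. Cells under proteotoxic, oxidative or nutrient stress slow translation and switch on stress genes through factors such as ATF4, XBP1 and NRF2. Interferon-stimulated genes arm a cell against viruses and many are kept at a low level in unstimulated cells.

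The authors deposited FPKM, a read measure corrected for transcript length and for library size, so levels can be compared between genes. The reads behind the values are not given and the depth is unknown. FPKM summed over genes lay between 590451 and 601823 in control and between 610582 and 645038 in treated cells, and the ferritin gene FTH1 took 1.73 to 1.77% of the sum in control and 2.86 to 3.22% in treated cells. All 12 keratinocyte markers were detected, with a summed FPKM of 10417 to 10796 in control and 11633 to 13855 in treated cells. The higher sum was not shared by all of them, as 6 rose and 5 fell by the test described below. Markers of other cells were low. Of 11 fibroblast markers 3 reached an FPKM of 1 in any of the 6 libraries (LUM, DCN and TWIST2), with a sum over the list of 13.2 to 16.3 in control and 2.56 to 4.68 in treated cells, and THY1 was not analysed here. LUM and DCN made up most of the control sum, and the part of this list in other results was not tested. The sum of 8 endothelial markers was 3.47 to 4.05 in control and 0.48 to 0.72 in treated cells, with 1 of 8 (CDH5) reaching an FPKM of 1. The sum of 10 macrophage and leukocyte markers was 11.3 to 13.4 in control and 26.6 to 30.2 in treated cells, most of it the lysosomal gene CD68, and 2 of 10 (CD14 and CD68) reached an FPKM of 1. The sum of 8 melanocyte markers was 1.88 to 2.61 and 3.11 to 3.73, with 1 of 8 (PMEL) reaching an FPKM of 1. COL1A2 and COL3A1, which define fibroblasts, stayed at or under an FPKM of 0.09, PECAM1 at or under 0.01, and PTPRC was not analysed here.

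The distance from control, for which this group was picked, is given as a description. Over 12050 genes, the root mean square difference from the control mean on the log2(FPKM + 0.1) scale was 1.04, 1.07 and 1.09 in the 3 libraries. It was 0.541 to 0.701 with undoped Ag2S NPs at 160 μg/mL, 0.73 to 0.772 with undoped Ag2S NPs at 320 μg/mL and 0.753 to 0.915 with Li-doped Ag2S NPs at 320 μg/mL, while a control library lay 0.292 to 0.311 from the mean of the other two. By this measure the 3 libraries of the lower dose of the Li-doped particle lay further out than those of the higher dose. By the median absolute log2 difference the doses overlapped, at 0.476 to 0.532 for 160 μg/mL and 0.372 to 0.555 for 320 μg/mL. These groups share the controls, so the distances are given with no test.

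**Figure D1:**
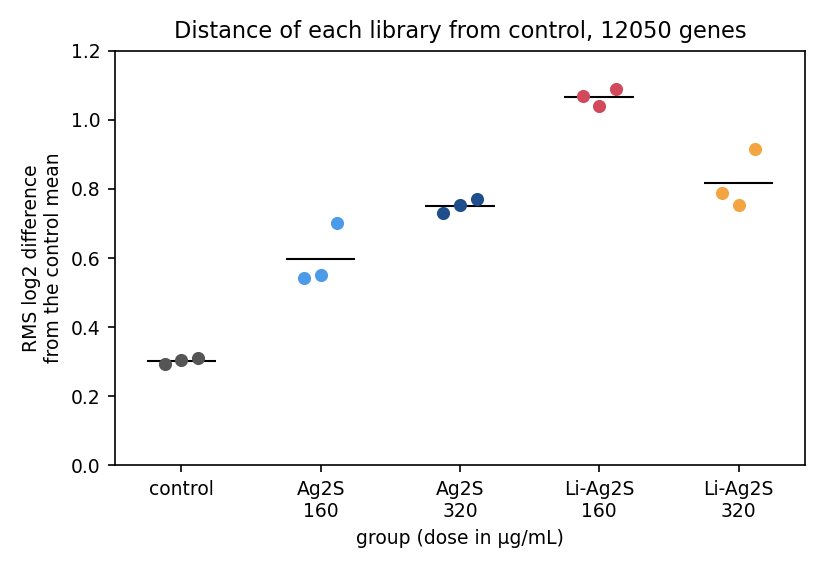
Root mean square log2 difference of each of the 15 libraries from the mean of the control libraries over 12050 genes (points, 1 per library, by group; horizontal lines are group means). The 3 libraries of Li-doped Ag2S NPs at 160 μg/mL lie between 1.04 and 1.09, above every other library.

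Genes whose FPKM averaged 1 or more across these 6 libraries were tested with limma, and a gene was called at an adjusted p (Benjamini-Hochberg) under 0.05. Of 12050 genes, 2897 rose (24.0%) and 5080 fell (42.2%) in treated cells, so 66.2% were called, and 998 of the rises and 1588 of the falls were larger than 2-fold. The groups did not overlap for 71.0% of genes tested. The gene in the middle of the ranking had a log2 fold change of -0.19 (the median), and when each library was scaled by the median of its gene-wise ratios to the average library (called scaled libraries below) 3909 genes rose and 3818 fell. Small changes below should be read against that median, and the counts of each gene list against 24.0% and 42.2%. Values written as going from one level to another are mean FPKM over the 3 control and the 3 treated libraries, and all fold changes in log2 are on the log2(FPKM + 0.1) scale. In RNA from whole cultures, fewer cells that express a gene and less of its RNA per cell cannot be told apart.

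The 12 largest rises and 12 largest falls held genes of cell surfaces, metabolism, cornification and interferon response. They were picked among called genes whose groups do not overlap, so neither property is a further result about them. All of these rises except CHAC1 and ODC1, given below, had a control mean FPKM under 1. They reached the average of 1 needed for testing only through the treated libraries. All 12 falls had a treated mean under 1 and reached it only through control. The adhesion molecule gene L1CAM was at an FPKM of 0.33, 0.24 and 0.55 in control and 38.8, 39.3 and 40.8 in treated cells (log2 fold change of 6.44, SE 0.23, adjusted p = 1.76e-07). Calcium-binding CALB2 went from 0.0567 to 7.3, the transporter gene SLC29A4 from 0.09 to 13.6, the kinesin gene KIF21B from 0.05 to 9.78, the Nogo receptor family gene RTN4RL2 from 0.0433 to 7.09 and the glucose transporter gene SLC2A3 from 0.203 to 13.4. SPRR2D, LCE1F and PRR9, genes of the cornified envelope and its neighbourhood, were near or at 0 in control. SPRR2D was listed at 0 in all 3 control libraries and at 15.6, 12.3 and 11.7 in treated cells, LCE1F at 0 in all 3 and at 4.64, 7.13 and 6.07, and PRR9 went from 0.0767 to 8.22. The pseudogene RPLP0P2, which shares sequence with the ribosomal gene RPLP0, went from 0.237 to 20. Among the falls the secreted glycoprotein gene OLFM4 was at 20.7, 17.9 and 21.1 in control and listed at 0 in all 3 treated libraries. The chemokine gene CCL2, whose protein draws monocytes into tissue, was at 73.5, 71.1 and 76.5 in control and 0.63, 0.6 and 0.66 in treated cells, which is a 117-fold lower mean (log2 fold change of -6.66, SE 0.10, adjusted p = 3.21e-09). SCGB1A1, a secretoglobin gene, went from 44.8 to 0.337, the secreted Ly6 protein gene SLURP2 from 22.8 to 0.347, the elastase gene MMP12 from 19.6 to 0.29, the proton pump subunit gene ATP6V1B1 from 14.5 to 0.15 and the retinoic acid receptor gene RARB from 5.89 to 0.0367. PIGY, which overlaps PYURF, was at 8.25, 7.79 and 1.24 in control and listed at 0 in treated cells.

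**Figure D2:**
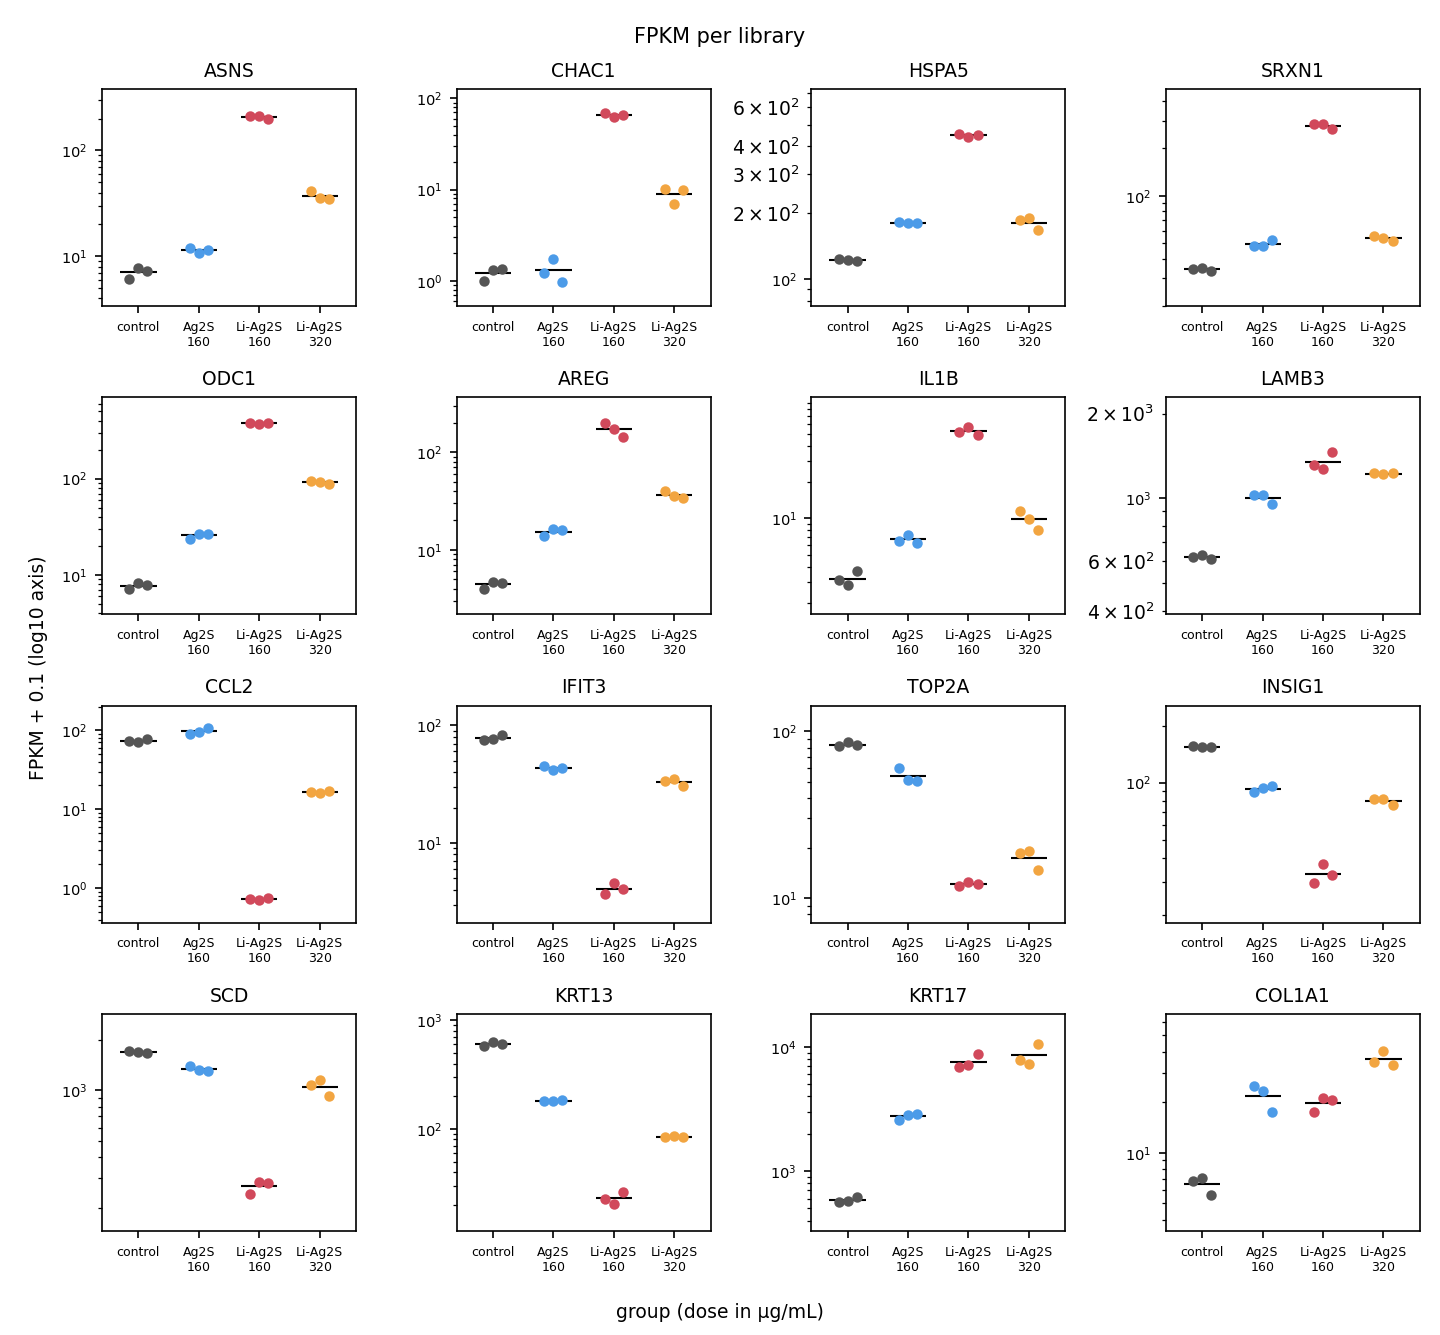
FPKM + 0.1 on a log10 axis for 16 genes in the libraries of control, undoped Ag2S NPs at 160 μg/mL, Li-doped Ag2S NPs at 160 μg/mL and Li-doped Ag2S NPs at 320 μg/mL (points, 1 per library; lines are group means). ASNS, CHAC1, ODC1 and AREG are highest and CCL2, IFIT3, KRT13 and SCD lowest in the cells given Li-doped Ag2S NPs at 160 μg/mL.

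Genes of amino acid supply rose in most cases. ATF4 is a transcription factor whose translation increases when initiation factor eIF2 is phosphorylated, and its targets make or import amino acids and charge tRNAs. Of 34 ATF4 targets tested, 30 rose and 3 fell, with a median log2 fold change of 1.44 against -0.19 over all genes. ATF4 itself was at 231, 237 and 245 in control and 582, 575 and 544 in treated cells. ASNS, the enzyme that makes asparagine, lies on chromosome 7 from 97852118 to 97872542 of GRCh38 and was at 5.97, 7.7 and 7.2 in control and 213, 209.6 and 197 in treated cells. All treated libraries lay far above all control libraries, a 29.7-fold higher mean (log2 fold change of 4.88, SE 0.10, adjusted p = 1.72e-08). CHAC1, which breaks down glutathione, was at 0.89, 1.21 and 1.25 in control and 68.1, 62 and 66.1 in treated cells, a 58.6-fold higher mean. The serine synthesis gene PSAT1 went from 28.5 to 408, the pseudokinase gene TRIB3 from 42.4 to 341, DDIT3, which encodes the transcription factor CHOP, from 32.6 to 166, and SLC3A2, which pairs with SLC7A5 to import large neutral amino acids, from 222 to 981. SLC7A5 was at 367, 369 and 366 in control and 1297, 1238 and 1468 in treated cells. The 3 that fell were ATF5 (-2.13), the stress gene NUPR1 (-1.90) and the glycine transporter gene SLC6A9 (-0.39). Enzymes that charge tRNAs in the cytosol moved with them, as 14 of 20 rose and 3 fell, while 16 rose and 1 fell with scaled libraries. AARS went from 72.1 to 352, GARS from 50.2 to 238, IARS from 39.7 to 169.6, YARS from 31.7 to 112 and SARS from 75.2 to 264. DARS (-0.35), HARS (-0.19) and QARS (-0.39) fell, HARS by no more than the median of all genes. With scaled libraries HARS (adjusted p = 0.976), QARS (0.0588) and SLC6A9 (0.115) no longer passed the test, and HARS did not pass in 5 of the 6 fits that left out 1 library.

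The promoter of ASNS is printed because ASNS has the smallest p among the ATF4 targets whose promoter holds the CEBP-ATF response element TGATGNAA. These are the 250 bases before its RefSeq start on the minus strand (GRCh38.p14, chr7:97872409-97872658), with the element in capitals.
ASNS: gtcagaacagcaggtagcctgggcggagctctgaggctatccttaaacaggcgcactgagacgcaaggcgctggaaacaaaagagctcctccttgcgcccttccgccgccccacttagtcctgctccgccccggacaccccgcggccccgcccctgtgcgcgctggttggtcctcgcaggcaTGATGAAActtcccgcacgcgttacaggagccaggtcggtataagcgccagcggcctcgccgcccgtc
Of 27 ATF4 targets matched to a promoter by symbol, 3 held TGATGNAA on either strand (ASNS, CHAC1 and ATF3), or 11.1%, against 1.36% of the 9318 tested genes with a promoter. These 3 had a median log2 fold change of 4.88 and the other 24 of 1.26. Such a match is a description of letters and not of binding.

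The unfolded protein response, which enlarges the folding capacity of the endoplasmic reticulum, rose with no member falling. Of 26 genes 21 rose, with a median log2 fold change of 0.72. The lumenal chaperone gene HSPA5 was at 124, 122 and 121 in control and 453, 441 and 452 in treated cells (log2 fold change of 1.87, SE 0.05, adjusted p = 3.28e-08). XBP1, the factor that drives folding and secretory genes, went from 26.6 to 128, the co-chaperone gene DNAJB9 from 6.55 to 18.5, HYOU1 from 33.2 to 69.5, the disulfide isomerase gene PDIA6 from 93 to 159 and calreticulin gene CALR from 187 to 240.4. In the list of heat shock genes and chaperones of the cytosol and mitochondria more genes rose than fell. Of 30 tested, 17 rose and 6 fell, while 22 rose and 2 fell with scaled libraries. HSPA8, the constitutive HSP70, went from 369.6 to 864, the mitochondrial chaperonin gene HSPD1 from 129.6 to 183 and the HSP70-HSP90 adaptor gene STIP1 from 68.2 to 99.2. The genes that heat shock induces most did not rise. HSPA1B was at 75.2, 71.6 and 75.5 in control and 41, 41.6 and 41.5 in treated cells, HSPA1A went from 87.6 to 69.8, DNAJB1 from 118 to 95.8, BAG3 from 78 to 61.2 and the small heat shock protein gene HSPB1 from 1598 to 1159.7, and all 5 fell, although with scaled libraries HSPA1A, DNAJB1 and BAG3 no longer passed the test. HSPA1A and HSPA1B are near-identical copies that share reads. CRYAB, another small heat shock protein gene, was at 0.2, 0 and 0.33 in control and 2.78, 2.51 and 2.28 in treated cells and rose.

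Antioxidant genes rose in part. NRF2 binds antioxidant response elements and is freed when its partner KEAP1 is oxidised. Of 37 NRF2 targets and antioxidant enzymes, 21 rose and 8 fell (median log2 fold change 0.66), while 24 rose and 5 fell with scaled libraries. SRXN1, which repairs oxidised peroxiredoxins, was at 34.1, 34.5 and 33.3 in control and 285, 284 and 266 in treated cells, with an 8.19-fold higher mean (log2 fold change of 3.03, SE 0.05, adjusted p = 8.48e-09). The quinone reductase gene NQO1 went from 115 to 515, the heme oxygenase gene HMOX1 from 3.82 to 15.7, the thioredoxin reductase gene TXNRD1 from 36.3 to 89, the glutathione synthesis gene GCLM from 22.6 to 42.9, the aldo-keto reductase gene AKR1C1 from 70.3 to 219 and the ferritin light chain gene FTL from 1304 to 4328. Mitochondrial superoxide dismutase gene SOD2 (from 118 to 41.2) and the glutathione peroxidase gene GPX2 (from 443 to 292) fell. Targets of the aryl hydrocarbon receptor, a sensor of planar aromatic compounds, were few. Their list also held ARNT, which encodes the receptor's partner and is not counted as a target. Of the 9 genes 6 rose and 3 fell (ALDH3A1 at -3.76, ARNT at -0.59 and NFE2L2 at -0.17 on the log2 scale). The fall of NFE2L2 was no larger than the median of all genes. NFE2L2, which encodes NRF2, did not pass with scaled libraries, nor without control library 1 or 3 or treated library 10. The cytochrome genes CYP1A1 (0.13, 0.05 and 0.1 in control and 3.35, 4.39 and 3.47 in treated cells) and CYP1B1 (from 9.32 to 42.9) rose, and so did the receptor's repressor gene AHRR (from 0.487 to 2.74) and TIPARP (from 24.4 to 44). ALDH3A1, an aldehyde dehydrogenase gene of the same list, was at 59.1, 62.4 and 58.5 in control and 4.26, 3.66 and 5.19 in treated cells and fell by 3.76 on the log2 scale. Their xenobiotic response element TNGCGTG was held by 2 of 7 matched promoters of this list, against 6.13% of tested genes.

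Metallothioneins, small proteins that bind zinc, copper, cadmium and silver and are induced by these metals, did not rise together. Of 10 listed, 7 had values and 5 were tested, of which 1 rose and 3 fell. MT1X was at 344, 362 and 376 in control and 241, 224 and 203 in treated cells, so that every treated library was below every control library (log2 fold change of -0.70, SE 0.07, adjusted p = 5.53e-05). MT2A, the most abundant, was at 1352, 1362 and 1334 in control and 1267, 1080.4 and 844 in treated cells (log2 fold change -0.36, adjusted p = 0.035), MT1E went from 457 to 301, and MT1F was at 29.3, 25.3 and 28.5 in control and 30.7, 24.7 and 17.7 in treated cells, where the groups overlap. MT2A did not pass without any 1 of the control libraries or without treated library 11, and MT1F passed without treated library 10 (log2 fold change -0.40, adjusted p = 0.0472). With libraries scaled by their median ratio 2 of the 3 falls passed the test. MT1G was at 0, 1.03 and 0 in control and 2.9, 2.36 and 4.53 in treated cells and rose, from a low level. MT1M and MT3 stayed below the filter. The copies of this family are near-identical and share reads. Among 25 genes of zinc and copper transport 6 rose and 3 fell (SLC30A6 at -0.53, COX17 at -0.47 and SLC11A2 at -0.68), the rises being close to the share of all genes, and 13 rose and 3 fell with scaled libraries. The zinc importer gene SLC39A14 was at 22.3, 20.3 and 21.9 in control and 68.2, 70.3 and 72.2 in treated cells and the copper pump gene ATP7B went from 1.07 to 2.86. The zinc exporter gene SLC30A1, a target of the metal sensor MTF1, went from 11.1 to 14.3, and MTF1 was at 4.58, 5.42 and 4.59 in control and 5.43, 5.57 and 5.29 in treated cells, which overlap, although it passed the test with scaled libraries (log2 fold change 0.34, adjusted p = 0.0352). The MT1X promoter is printed to show the metal response element core, TGCACNC or TGCGCNC, in capitals (RefSeq, GRCh38.p14, chr16:56682220-56682469, plus strand, 250 bases before the start).
MT1X: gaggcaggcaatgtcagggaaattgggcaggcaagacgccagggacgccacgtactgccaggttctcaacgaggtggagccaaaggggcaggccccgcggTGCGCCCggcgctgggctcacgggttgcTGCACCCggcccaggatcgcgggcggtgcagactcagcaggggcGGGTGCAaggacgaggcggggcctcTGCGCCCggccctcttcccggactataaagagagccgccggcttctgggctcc
It holds 4 cores, and the core is common, since 33.5% of tested genes with a promoter hold it on either strand.

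Growth metabolism rose in several lists. Ornithine decarboxylase gene ODC1, which starts polyamine synthesis, was at 7.05, 8.12 and 7.76 in control and 379.7, 366 and 373 in treated cells, a 48.8-fold higher mean, and lies on chromosome 2 from 10439968 to 10448504 of GRCh38. Of 11 polyamine genes 6 rose, among them AMD1 (from 15.1 to 29.5), spermidine synthase gene SRM (from 21.6 to 48.2), spermine synthase gene SMS (from 52.7 to 111) and spermine oxidase gene SMOX (from 16.5 to 40.5), and SAT1, whose product acetylates polyamines, fell (from 295 to 204). The transcription factor gene MYC was at 41.1, 39.8 and 36.2 in control and 125, 106 and 107 in treated cells. Ribosome biogenesis genes rose in 31 of 45 cases and fell in 2, TCOF1 at -0.55 and NOB1 at -0.21 (median log2 fold change 0.46), with the processing factor gene RRP12 going from 7.81 to 18.9, WDR43 from 14.1 to 26.8 and NOLC1 from 25 to 44.6. Of the ribosome biogenesis list 37 rose and 1 fell with scaled libraries, and NOB1 did not pass then, nor without control library 2 or 3 or treated library 11. Cytosolic ribosomal protein genes rose in 38 of 77 cases and fell in 2, among them RPL22 (-0.26), and the median log2 fold change of the list was 0.24, while 64 rose and 0 fell with scaled libraries. RPL22 did not pass then, nor without any 1 of the control libraries. Pseudogenes share reads with these genes. Of 30 glycolysis and hypoxia genes 24 rose and 3 fell (PFKL at -0.47, ALDOC at -1.66 and EGLN1 at -0.53). Lactate dehydrogenase gene LDHA went from 528 to 1122, hexokinase gene HK2 from 2.03 to 9.78, phosphofructokinase gene PFKP from 50.7 to 127, NDRG1 from 165 to 975 and the mitophagy gene BNIP3 from 3.33 to 29.1. CA9, the most specific hypoxia gene of the list, stayed at or under 0.89 in all 6 libraries. The nuclear genes of the respiratory chain moved the other way, with 42 of 60 falling and 1 rising, and a median log2 fold change of -0.45, while 5 rose and 32 fell with scaled libraries. NDUFB5 of complex I went from 169.6 to 79.4, SDHD of complex II from 246 to 134 and ATP5F1A of the ATP synthase from 509 to 315, and UQCRC1 of complex III was the member that rose as deposited (from 149 to 197).

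Several ligands of the EGF receptor rose. They are made as membrane proteins, shed by proteases and drive keratinocyte migration. Amphiregulin gene AREG was at 3.86, 4.57 and 4.5 in control and 201, 173 and 143 in treated cells, a 39.9-fold higher mean (log2 fold change of 5.28, SE 0.13, adjusted p = 3.28e-08). HBEGF was at 9.02, 9.86 and 8.43 in control and 78.9, 67.8 and 64.4 in treated cells. The epiregulin gene EREG went from 0.65 to 8.22 and TGFA from 7.78 to 22.7. NRG1, whose protein binds ERBB3 and ERBB4 and not the EGF receptor, went from 17.7 to 93. The receptor gene EGFR went from 151 to 243, and the feedback inhibitor gene ERRFI1, whose protein binds the receptor's kinase, from 3.59 to 41.5. ERBB3 (from 31 to 10.2), NRG2 (from 3.55 to 0.937) and NRG4 (from 12.1 to 3.57) fell. In total 7 of 13 genes of this list rose and 5 fell. The other falls were EPGN (-1.39), which also encodes a ligand of the EGF receptor, and ERBB2 (-0.66). Of 28 genes that the ERK kinases switch on, 23 rose and 2 fell, with a median log2 fold change of 1.65. The AP-1 genes FOSL1 (from 13.2 to 75.3) and JUN (from 7.33 to 56.4), the phosphatase genes DUSP4 (from 2.89 to 22.8) and DUSP6 (from 28.4 to 96.8), EGR1 (from 34.9 to 122), IER3 (from 24.2 to 299.6) and PHLDA1 (from 6.15 to 47.5) were among them. FOSB (-0.53) and MCL1 (-0.22) were the members that fell as deposited, while 25 rose and 0 fell with scaled libraries. FOSB did not pass in 5 of the 6 fits that left out 1 library, nor with no filter on low values, and MCL1 not without control library 2 or 3.

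Interferon-stimulated genes fell together. Of 47 tested, 44 fell and 0 rose, with a median log2 fold change of -2.38 against -0.19 over all genes, while 1 rose and 41 fell with scaled libraries, the rise being TRIM25 (log2 fold change 0.32, adjusted p = 0.00713). IFIT3, which binds IFIT1 in a complex that recognises foreign RNA ends, was at 75.2, 77 and 83.4 in control and 3.58, 4.47 and 3.95 in treated cells, a 19.6-fold lower mean (log2 fold change of -4.27, SE 0.10, adjusted p = 2.64e-08). IFIT1 went from 69.8 to 5.52, the dynamin-like antiviral gene MX1 from 40.6 to 3.3, the ubiquitin-like modifier gene ISG15 from 205 to 42.4, IFI27 from 726 to 139, IFI6 from 298 to 39.5 and IFITM1 from 464 to 103. IFI44L was at 14.3, 11.3 and 11.5 in control and 0.33, 0.09 and 0.15 in treated cells. The chaperone gene RTP4 (from 6.98 to 0.0967) and the ubiquitin-like gene UBD (from 6.72 to 0.0533) were among the 12 largest falls of all genes. The factors that carry the interferon signal fell too. IRF7 was at 88.1, 75 and 75.7 in control and 10.8, 11 and 14.5 in treated cells, IRF9 went from 124 to 30.4, the RNA sensor genes DDX58 from 15.3 to 4.19 and IFIH1 from 20.2 to 4.14, and the DNA sensing adaptor gene TMEM173, which encodes STING, from 43.1 to 14.4. In total 21 of 31 sensors and signal genes fell and 2 rose, namely the receptor gene IFNAR2 (0.72) and the inhibitor gene SOCS3 (0.41), while 6 rose and 21 fell with scaled libraries. SOCS3 did not pass without control library 1 or 2 or treated library 10 or 12. Antigen presentation fell in 23 of 23 genes, among them the protease gene CTSS (from 24.5 to 1.83) and the immunoproteasome genes PSMB10 (from 82.6 to 11.7) and PSMB8 (from 102 to 36.6). With scaled libraries 19 of the 23 fell and 0 rose. The class I chains moved less. HLA-B was at 623, 599.9 and 629 in control and 514, 523 and 549.7 in treated cells (log2 fold change -0.22), close to the median of all genes and not past the test with scaled libraries (adjusted p = 0.639), and B2M had a log2 fold change of -0.51.

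The promoter of IFIT3 is printed because IFIT3 has the smallest p among the effectors whose promoter holds the interferon-stimulated response element, GAAA followed by any 2 bases and GAAA (RefSeq, GRCh38.p14, chr10:89327747-89327996, plus strand, 250 bases before the start). Its 2 elements are in capitals.
IFIT3: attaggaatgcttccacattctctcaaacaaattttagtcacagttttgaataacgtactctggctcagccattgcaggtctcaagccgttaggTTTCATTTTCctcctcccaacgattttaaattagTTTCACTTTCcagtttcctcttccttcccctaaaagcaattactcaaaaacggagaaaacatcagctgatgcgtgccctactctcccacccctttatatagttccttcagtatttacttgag
Of 36 effectors matched to a promoter 21 held the element on either strand (58.3%), against 2.3% of all tested genes with a promoter. Members with the element had a median log2 fold change of -2.27 and the 15 without it of -2.95.

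Cytokine genes moved in both directions. Of 28 cytokine, chemokine and NF-kB response genes 10 rose and 13 fell, and with scaled libraries 13 rose and 12 fell. The alarmin gene IL1A was at 1.1, 1.19 and 1.15 in control and 50.3, 49.7 and 40.9 in treated cells, a 41-fold higher mean. IL1B, the inflammasome's secreted product, was at 2.98, 2.71 and 3.57 in control and 51.9, 57.1 and 48.4 in treated cells. The neutrophil chemokine gene CXCL8 went from 5.61 to 10.3 and the NF-kB inhibitor gene TNFAIP3 from 14.3 to 41.9, and both rose, while CXCL1 (from 13.5 to 6.39), TNFAIP2 (from 362 to 79) and the prostaglandin synthase gene PTGES (from 197 to 38.3) fell together with CCL2. LCN2, an iron-siderophore binding protein gene, was at 766, 761 and 774 in control and 958, 801 and 833 in treated cells and did not pass the test (adjusted p = 0.068), although it passed with scaled libraries (log2 fold change 0.36, adjusted p = 0.00233) and without treated library 11 (adjusted p = 0.0329) or 12 (0.0382). Of 25 death and survival genes 6 rose and 14 fell. The death ligand gene TNFSF10 (TRAIL) was at 334, 329.9 and 341 in control and 13.6, 17.6 and 14.9 in treated cells, and its receptor gene TNFRSF10B went from 21.5 to 57. The caspase gene CASP1 (from 35.9 to 7.6) fell and BAK1 (from 38.7 to 65.4) rose.

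Cell division genes fell in nearly every case. Of 50 mitosis and spindle genes all 50 fell, with a median log2 fold change of -1.96. Topoisomerase gene TOP2A, which untangles sister chromosomes, was at 81.6, 85.7 and 82.2 in control and 11.6, 12.3 and 12.1 in treated cells, a 6.92-fold lower mean (log2 fold change of -2.78, SE 0.06, adjusted p = 2.45e-08). The proliferation marker gene MKI67 was at 26.7, 28.6 and 30.1 in control and 4.62, 4.41 and 5.27 in treated cells. The mitotic kinase genes CDK1 (from 64.4 to 17.2) and PLK1 (from 61.1 to 18.2), cyclin gene CCNB1 (from 109 to 36.5), the kinesin gene KIF20A (from 41.6 to 4.94) and their transcription factor FOXM1 (from 45.3 to 12.1) fell likewise. Replication and nucleotide synthesis fell in 44 of 46 genes and rose in 1, the polymerase subunit gene POLD2 (from 103 to 152). The helicase gene MCM5 went from 34.3 to 4.98, the sliding clamp gene PCNA from 127 to 50.9, thymidylate synthase gene TYMS from 9.38 to 1.43, ribonucleotide reductase genes RRM1 from 52.8 to 15.5 and RRM2 from 25.5 to 5.54, and E2F1 from 3.74 to 0.863. All 28 of 28 replication-dependent histone genes tested fell, with a median log2 fold change of -2.87, though their copies are alike and share reads. HIST2H2BE was at 52.1, 54.3 and 55.1 in control and 6.51, 7.44 and 6.22 in treated cells. Genes that set the passage through G1 were divided, 8 of 21 rising and 12 falling. The inhibitor gene CDKN1A (p21) was at 117, 124 and 117 in control and 358, 339.9 and 374 in treated cells and cyclin genes CCND1 (from 71.9 to 112) and CCNE1 (from 2.21 to 5.27) rose, while the inhibitor genes CDKN2C (from 6.7 to 1.11) and CDKN1B (from 30.4 to 15.7) and RB1 (from 33.1 to 18.6) fell. HaCaT carries mutant p53. Of 26 p53 target genes 10 rose and 9 fell, with GADD45A going from 11 to 39.3, DDB2 from 100.0 to 28.8 and TP53INP1 from 33.5 to 7.33. MDM2, the feedback gene of p53, was at 13.3, 15.8 and 16 in control and 13.3, 13.8 and 14.4 in treated cells, which overlap. GDF15, a stress cytokine gene of the same list, was at 0.49, 0.24 and 0.22 in control and 16.4, 10.1 and 10.8 in treated cells.

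The TOP2A promoter is printed to show the cell cycle homology region, TTTGAA or TTCGAA, in capitals (RefSeq, GRCh38.p14, chr17:40417897-40418146, minus strand, 250 bases before the start). TOP2A has the smallest p of the mitosis genes whose promoter holds it.
TOP2A: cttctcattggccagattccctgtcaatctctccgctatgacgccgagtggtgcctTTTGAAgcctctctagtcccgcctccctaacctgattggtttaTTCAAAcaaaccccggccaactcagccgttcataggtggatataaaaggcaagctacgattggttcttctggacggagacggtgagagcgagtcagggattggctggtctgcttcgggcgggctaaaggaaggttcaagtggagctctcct
Of 43 matched promoters of this list 23 held these letters (53.5%), against 9.29% of tested genes. The median log2 fold change was -1.99 with and -2.05 without them.

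Lipid synthesis fell. Cholesterol and fatty acid synthesis are driven by SREBP factors, which are cut and enter the nucleus when sterols are scarce. Of 25 genes of cholesterol synthesis and uptake 22 fell and 1 rose (median log2 fold change -1.23). The sterol sensor gene INSIG1 was at 156, 154 and 154 in control and 29.5, 37.1 and 32.3 in treated cells, a 4.69-fold lower mean (log2 fold change of -2.23, SE 0.08, adjusted p = 2.23e-07). Desaturase gene SC5D went from 165 to 34 and mevalonate kinase gene MVK from 74.4 to 18.7. SQLE was at 56.7, 51.5 and 54.7 in control and 47.2, 53.6 and 43 in treated cells, which overlap, although it passed without treated library 11 (log2 fold change -0.27, adjusted p = 0.017). PMVK rose (from 26.7 to 33.4). In fatty acid synthesis 13 of 22 fell and 2 rose, while 5 rose and 12 fell with scaled libraries. Stearoyl-CoA desaturase gene SCD was at 1706, 1696 and 1664 in control and 241, 286 and 283 in treated cells, fatty acid synthase gene FASN at 361, 367 and 315 in control and 26.5, 26.3 and 42.2 in treated cells and the factor gene SREBF1 at 337, 348 and 341 in control and 73.8, 68.1 and 68.6 in treated cells, with no overlap in any of the 3. FADS3 (from 36.9 to 177) and ELOVL7 (from 2.13 to 5.86) rose. The list of cholesterol efflux also held the genes of LXR, the receptor that oxysterols switch on. Of the 5 genes tested, 1 rose (APOE, from 2.6 to 5.93). The 3 that fell were MYLIP and the LXR genes NR1H2 and NR1H3, which are not efflux genes themselves. ABCG1 was at 1.37, 0.95 and 1.27 in control and 1.74, 1.74 and 1.55 in treated cells and passed the test only with scaled libraries (log2 fold change 0.64, adjusted p = 0.0401), and ABCA1 was at or under 0.16 in all 6 libraries. The sterol response element TCACNCCAC was held by 1 of 18 matched cholesterol promoters, against 0.912% of tested genes.

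**Figure D3:**
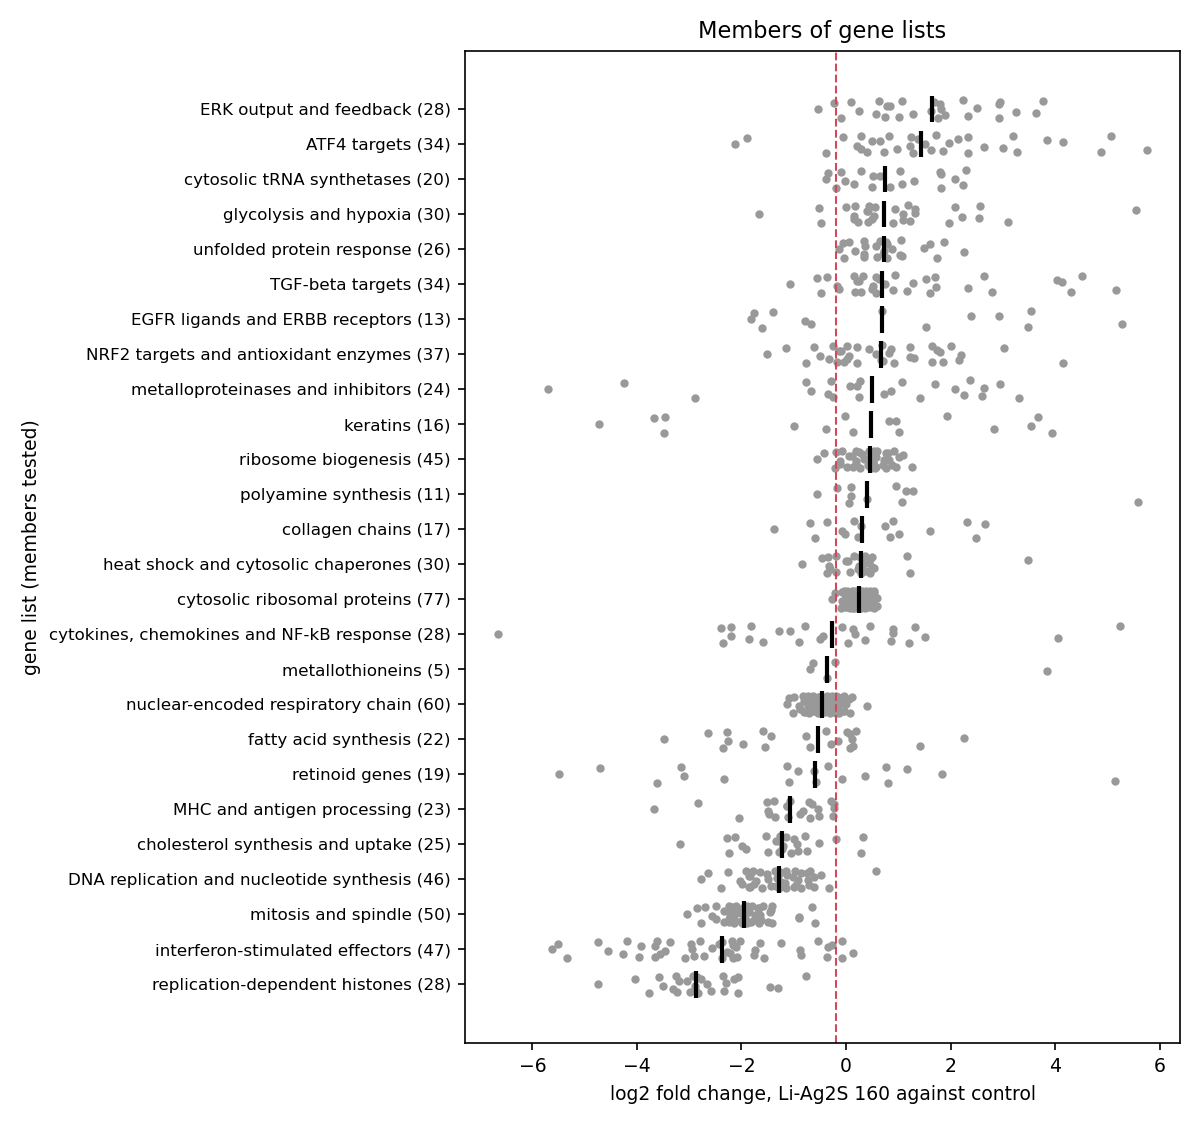
Log2 fold change of treated cells against control for the tested members of 26 gene lists (grey points, 1 per gene; black bars are medians; the dashed line is the median of all genes, -0.19). The medians run from -2.87 for replication-dependent histones to 1.65 for ERK output and feedback.

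The study followed TGFB1, TIMP1 and COL1A1 as readouts of collagen synthesis. TGFB1, the TGF-β1 cytokine gene on chromosome 19 from 41301587 to 41353911 of GRCh38, was at 25.4, 24.6 and 22.7 in control and 77, 64 and 85.7 in treated cells, with no overlap (log2 fold change of 1.63, SE 0.11, adjusted p = 4.53e-06). TIMP1, an inhibitor of metalloproteinases on chromosome X from 47582313 to 47586789, was at 63.1, 64.1 and 72.8 in control and 322, 307 and 332 in treated cells (log2 fold change of 2.26, SE 0.07, adjusted p = 8.60e-08). COL1A1, the α1 chain of type I collagen on chromosome 17 from 50183289 to 50201632, was at 6.7, 7.01 and 5.54 in control and 17.3, 21 and 20.6 in treated cells (log2 fold change of 1.60, SE 0.12, adjusted p = 1.10e-05). COL1A2, the partner chain, was at or under 0.09. TGF-β binds receptor kinases that phosphorylate SMAD2 and SMAD3. Of 34 TGF-β targets 25 rose and 4 fell (LTBP2 at -0.56, LTBP3 at -0.48, ITGB6 at -1.07 and ITGAV at -0.37), with a median log2 fold change of 0.69, while 27 rose and 2 fell with scaled libraries. Of the falls, LTBP2 did not pass with scaled libraries or without control library 1, and ITGAV not with scaled libraries or without control library 1 or 2 or treated library 10. The matrix gene THBS1 was at 10.5, 7.35 and 7.67 in control and 166, 179 and 162 in treated cells, with no overlap. Fibronectin gene FN1 went from 33.1 to 229, the crosslinking transglutaminase gene TGM2 from 0.843 to 16.2, TGFBI from 564 to 808 and the inhibitory SMAD7 from 12.2 to 22.6. The integrin gene ITGB6, whose product releases latent TGF-β, fell (from 39 to 18.5). Ligands, receptors and SMADs were evenly split, 4 of 15 rising and 4 falling, or 6 and 3 with scaled libraries. SMAD3 (from 77.6 to 43.4), TGFBR1 (from 15.4 to 10.5) and SMAD6 (from 10.7 to 2.71) fell, and TGFBR2 was at 21.6, 21.6 and 21.2 in control and 22.9, 22.2 and 23.1 in treated cells (adjusted p = 0.284) and rose with scaled libraries (log2 fold change 0.27, adjusted p = 0.00992). ID genes, which BMP signals induce and which hold back differentiation factors, fell. ID1 was at 408, 367 and 328 in control and 52.5, 33.2 and 39.7 in treated cells, ID3 at 393, 387 and 363 in control and 24.9, 30 and 24 in treated cells, and ID2 went from 46.8 to 3.65 and ID4 from 14.7 to 0.78. The activin and BMP antagonist genes FST (from 4.03 to 41.3) and FSTL3 (from 9.96 to 41.1) rose.

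Matrix genes changed member by member. Of 17 collagen chains 9 rose and 4 fell, while 11 rose and 2 fell with scaled libraries. COL5A1 went from 8.12 to 41.1, COL5A3 from 1.35 to 9 and basement membrane COL4A1 from 11 to 18.5. The anchoring fibril gene COL7A1 was at 108, 98.3 and 96.8 in control and 223, 244 and 122 in treated cells, with the last treated library far below the other two. COL17A1 (387, 392 and 389.6 in control and 366, 379 and 358 in treated cells) and COL4A2 (38.3, 34.4 and 35 in control and 40.2, 35 and 44.4 in treated cells) did not pass the test, although COL4A2 passed with scaled libraries (log2 fold change 0.33, adjusted p = 0.0237) and without treated library 11 (adjusted p = 0.0381). Enzymes that modify and cross-link collagen rose in 12 of 18 cases and fell in 5. P4HB (from 199.8 to 461), P4HA2 (from 27.8 to 55.8), PPIB (from 303 to 627) and LOXL1 (from 4.74 to 34.8) rose, and the collagen chaperone gene SERPINH1 (from 118 to 73.7), CRTAP (from 129 to 84.8), PLOD2 (from 10.1 to 6.33) and the procollagen protease gene BMP1 (from 72.1 to 48.1) fell. Matrix glycoproteins fell in 9 of 17 cases and rose in 2, ENTPD2 at 3.27 and LAMB1 at 1.06, while 4 rose and 8 fell with scaled libraries. The proteoglycan genes LUM (5.37, 4.36 and 5.84 in control) and DCN (5.99, 6.16 and 9.09) were each listed at 0 in 2 of 3 treated libraries. The laminin genes LAMA3 (from 59.9 to 683) and LAMB3 (from 619 to 1346), whose chains are part of the skin's basement membrane, rose, while LAMA5 fell (from 274 to 116). The integrin genes ITGA3 (from 184 to 267), ITGA6 (from 201 to 347), ITGB1 (from 137 to 321) and ITGB4 (from 499 to 711) rose as well.

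Proteases of the matrix diverged by gene. Of 24 metalloproteinases and inhibitors 13 rose and 7 fell. The collagenase gene MMP1 was at 125, 125 and 120.2 in control and 706, 610.4 and 601 in treated cells and the stromelysin gene MMP10 at 62.3, 66.3 and 66.4 in control and 512, 496 and 497 in treated cells, and MMP9 (from 1.1 to 7.45) rose from a low level. The collagenase gene MMP13 was at 391, 393 and 418 in control and 54.7, 55.8 and 51.4 in treated cells and fell, as did matrilysin gene MMP7 (from 6.22 to 0.25) and membrane-bound MMP14 (from 154 to 96.8). TIMP2 went from 3.47 to 35.3. In plasminogen activation 6 of 9 genes rose and 3 fell. The inhibitor gene SERPINE2 was at 19.6, 17.7 and 17.8 in control and 419, 414 and 433 in treated cells and the urokinase receptor gene PLAUR went from 6.99 to 45.7, while the activator genes PLAT (from 15.1 to 6.85) and PLAU (from 82.9 to 67.4) fell, the latter not with scaled libraries (adjusted p = 0.125). Hyaluronan synthase genes moved apart, HAS2 from 5.37 to 0.447 and HAS3 from 14.5 to 36.1. Of 34 actin and contractile genes 25 rose and 2 fell (TPM2 at -1.38 and CNN3 at -0.70). ACTB, often taken as a reference gene, was at 1041, 1079 and 1064 in control and 2323, 2305 and 2393 in treated cells (log2 fold change of 1.14, SE 0.05, adjusted p = 5.69e-07). Filamin gene FLNA went from 186 to 809.6, ACTN1 from 77.4 to 239.8 and the tubulin gene TUBA1A from 2.15 to 21.

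Keratins moved in both directions. Of 16 keratin genes 8 rose and 6 fell. The wound keratin gene KRT17 was at 568, 578 and 615 in control and 6921, 7100.0 and 8693 in treated cells, KRT16 at 17.1, 18 and 15.2 in control and 223, 231 and 329 in treated cells and KRT6A at 467, 505 and 497 in control and 1712, 1723 and 2196 in treated cells. In each of these 3 the last treated library was the highest, all treated libraries lay above all control libraries, and near-identical copies can share reads. Basal KRT15 was at 3156, 3025 and 2923 in control and 264, 319.7 and 244 in treated cells, mucosal KRT13 at 576, 638 and 610.2 in control and 22.3, 20.2 and 26 in treated cells and KRT4 went from 43.1 to 3.3, all 3 falls. The basal pair did not move together, KRT14 going from 2635 to 5167 and KRT5 from 4128 to 3195, a fall that no longer passed the test with scaled libraries. KRT1 of the suprabasal layers was at 86.2, 84.3 and 83.2 in control and 6.41, 6.92 and 9.22 in treated cells, while its partner KRT10 was at 23.5, 21.5 and 23 in control and 28.8, 20.8 and 18.9 in treated cells, which overlap. Of 18 late differentiation genes 10 rose and 6 fell. Involucrin gene IVL (from 9 to 0.79), sciellin gene SCEL (from 30.4 to 2.28) and the transglutaminase gene TGM1 (from 58.4 to 20.1) fell, while SPRR1B (from 39.7 to 98.4) rose with SPRR2D. Among 24 epithelial transcription factors 7 rose and 13 fell. ELF3 was at 80.2, 74 and 80 in control and 2.19, 3.28 and 2.13 in treated cells, GATA3 went from 32.1 to 3.39, FOXA1 from 21 to 1.48 and SOX2 from 18.9 to 3.84, and the basal factor TP63 (from 102 to 154) and KLF4 (from 9.22 to 25.6) rose. Retinoid genes fell in 11 of 19 cases and rose in 4. The retinol uptake gene STRA6 was at 22, 22.4 and 20 in control and 0.58, 0.8 and 0.83 in treated cells, the retinal reductase gene DHRS3, which retinoic acid induces, at 109, 109 and 112 in control and 9.25, 8.06 and 9.39 in treated cells, and RARB fell from an FPKM of 6.04, 5.84 and 5.78 in control to 0, 0.03 and 0.08. DHRS2, a short-chain dehydrogenase gene, rose from 0.457 to 19.7. Of 12 genes of mesenchymal transition 7 rose and 3 fell (the epithelial factor genes GRHL2 at -0.86 and OVOL2 at -1.37, and S100A4 at -1.71). This list holds both epithelial and mesenchymal genes, so its counts give no direction of the transition. CDH2 (from 3.16 to 12.5) and SNAI2 (from 38.1 to 73.3) rose, and so did the epithelial genes CDH1 (from 93.2 to 116) and EPCAM (from 89.1 to 111), while VIM was listed at 0 in all 3 control libraries and at 0.52, 0.36 and 0.33 in treated cells.

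The Li-doped particle was set against the undoped particle at the same dose and time in a fit of 9 libraries. The particles differ by lithium as a dopant of Ag2S, and the comparison asks where the doped particle gave another level. According to the paper the doped particle also emits more strongly and differs somewhat in hydrodynamic diameter. These traits cannot be told apart from lithium itself here. Of 11987 genes, 2563 were higher (21.4%) and 3479 lower (29.0%) with the Li-doped particle. With undoped particles CCL2 was at 90.4, 95.4 and 106, against 0.63, 0.6 and 0.66 with the Li-doped particle (log2 difference of -7.06, SE 0.09, adjusted p = 3.52e-12). The related chemokine gene CCL7 was at 10.8, 8.15 and 11.9 with undoped and 0, 0.19 and 0 with Li-doped particles. ATF4 targets were higher with the Li-doped particle in 28 of 34 cases and lower in 3, with a median log2 difference of 1.51. CHAC1 stood at 1.11, 1.65 and 0.88 with undoped particles, overlapping control (log2 difference of 5.68, SE 0.21, adjusted p = 1.08e-08), and ASNS at 12, 10.8 and 11.3 (log2 difference of 4.18, SE 0.10, adjusted p = 6.19e-10). DDIT3 was at 16, 17.9 and 16 with undoped particles, below control, and at 179, 177 and 144 with the Li-doped particle. ERK output genes were higher in 21 of 27 cases and lower in 0, and HBEGF was at 8.3, 9.24 and 8.55 with undoped and 78.9, 67.8 and 64.4 with Li-doped particles (adjusted p = 6.37e-09). All 50 mitosis genes and 42 of 47 interferon-stimulated effectors were lower, and 2 effectors were higher, TRIM25 (0.52) and SLFN5 (0.49), which are named for their direction after their values were seen. Genes of the TGF-β group differed in both directions. TGM2 was at 45.8, 40 and 42.5 with undoped particles and 16, 14.3 and 18.2 with the Li-doped particle (log2 difference of -1.40, SE 0.19, adjusted p = 1.17e-04), TGFBI at 1555, 1500.2 and 1584 with undoped and 740.5, 854 and 831 with Li-doped particles, and COL1A1 at 24.7, 23.4 and 17.3 with undoped and 17.3, 21 and 20.6 with Li-doped particles, a difference that did not pass the test (log2 difference of -0.14, SE 0.15, adjusted p = 0.468). TGFB1 (log2 difference of 0.66, SE 0.11, adjusted p = 4.47e-04) and TIMP1 (log2 difference of 1.51, SE 0.08, adjusted p = 1.31e-07) were higher with the Li-doped particle. TGF-β targets as a list were split evenly, 14 higher and 14 lower of 34. The small heat shock protein gene HSPB1 was at 2549, 3381 and 3206 with undoped particles, above every control library, and below control with the Li-doped particle. Metallothionein gene MT1X was at 448, 537 and 517 with undoped particles (log2 difference of -1.17, SE 0.09, adjusted p = 1.48e-06).

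Li-doped Ag2S NPs at 160 μg/mL were also compared with the same particle at 320 μg/mL, in a fit of 15 libraries. Of 11952 genes, 2784 were higher (23.3%) and 2337 lower (19.6%) at the lower dose, and with scaled libraries 2348 were higher and 2724 lower. No gene checks the dose labels, so each difference is between libraries as labelled. ATF4 targets were higher in 26 of 34 cases and lower in 5, and ribosome biogenesis genes were higher in 39 of 45 cases and lower in 0. NRF2 targets and antioxidant enzymes were higher at 160 μg/mL in 21 of 36 cases and lower in 9. ASNS was at 41.3, 35.4 and 34.4 at 320 μg/mL against 213, 209.6 and 197 at 160 μg/mL (log2 difference of 2.48, SE 0.10, adjusted p = 9.50e-11), and SRXN1 at 55.2, 54.2 and 51.6 against 285, 284 and 266 (log2 difference of 2.37, SE 0.06, adjusted p = 3.07e-13). GDF15 was at 0.09, 0.16 and 0.27 at the higher dose, overlapping control (log2 difference of 5.54, SE 0.69, adjusted p = 1.39e-05). HBEGF was at 8.36, 9 and 7.58 there and CXCL8 at 2.41, 1.46 and 1.01, below control. Mitosis genes were lower at 160 μg/mL in 25 of 50 cases and higher in 0, and MKI67 was at 5.38, 4.96 and 4.02 at 320 μg/mL, a difference of 0.00029 that did not pass the test (adjusted p = 0.999, SE 0.15). Keratins were lower at 160 μg/mL in 9 of 14 cases and higher in 3. KRT1 was at 201, 212 and 204 at 320 μg/mL, above control, and at 6.41, 6.92 and 9.22 at 160 μg/mL (log2 difference of -4.77, SE 0.11, adjusted p = 9.91e-14). KRT5 was at 9403, 9297 and 10284 against 2880.2, 3114 and 3591, and KRT14 at 10791, 10725 and 14116 against 4704, 4890.0 and 5907. Collagen chains were lower at 160 μg/mL in 10 of 16 cases and higher in 0, and COL1A1 was at 34.6, 40.2 and 33.1 against 17.3, 21 and 20.6 (log2 difference of -0.87, SE 0.13, adjusted p = 9.14e-05). TGFB1 was at 68.1, 57.5 and 67.2 at 320 μg/mL, a difference that did not pass the test (log2 difference of 0.23, SE 0.10, adjusted p = 0.0856), although it did without library 11 of 160 μg/mL (log2 difference 0.34). LCN2 was at 209, 192 and 215 at 320 μg/mL, below every control library, and at 958, 801 and 833 at 160 μg/mL (log2 difference of 2.07, SE 0.09, adjusted p = 1.78e-10).

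**Figure D4:**
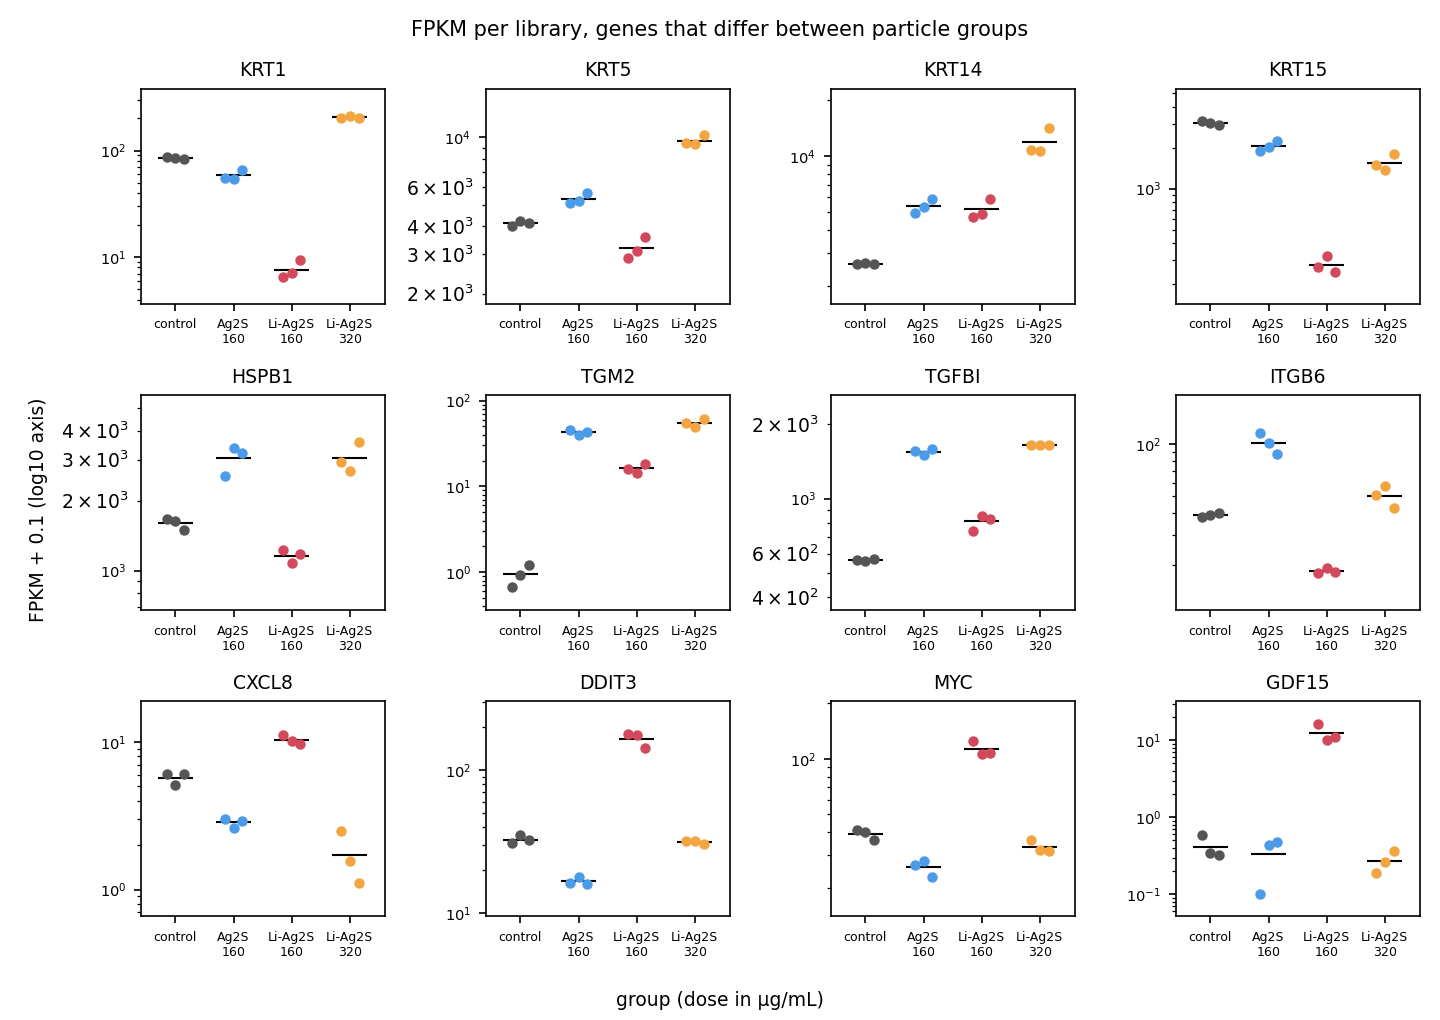
FPKM + 0.1 on a log10 axis for 12 genes in control, undoped Ag2S NPs at 160 μg/mL and Li-doped Ag2S NPs at 160 and 320 μg/mL (points, 1 per library; lines are group means). KRT1, HSPB1, ITGB6, CXCL8 and DDIT3 lie on opposite sides of control with Li-doped Ag2S NPs at 160 μg/mL and with at least 1 of the other particle groups.

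**Figure D5:**
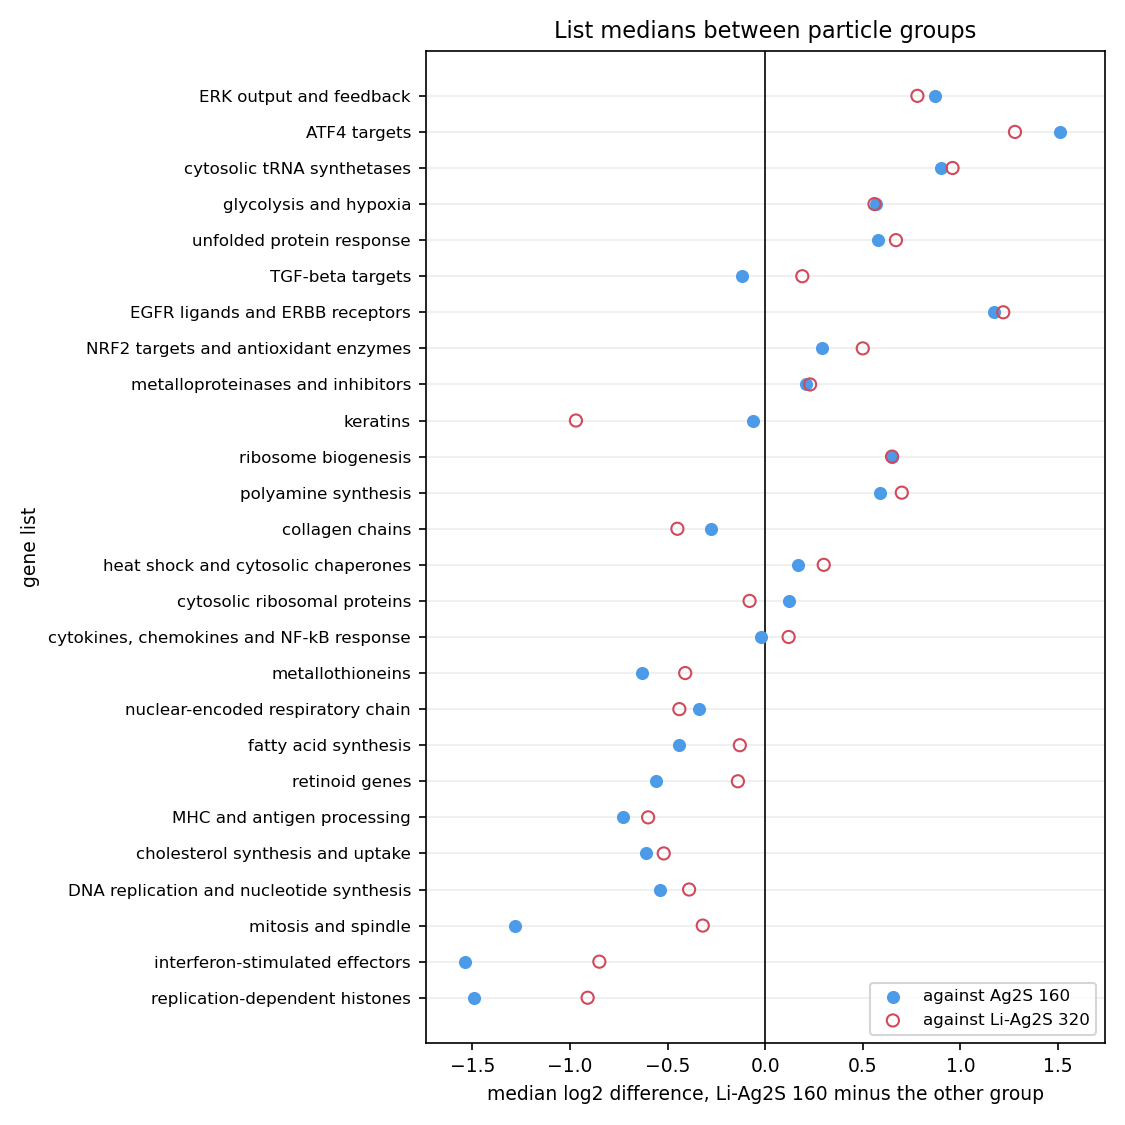
Median log2 difference of each of 26 gene lists between Li-doped Ag2S NPs at 160 μg/mL and undoped Ag2S NPs at 160 μg/mL (filled points) and between the 160 and 320 μg/mL doses of Li-doped Ag2S NPs (open points). ATF4 targets lie at 1.51 and 1.28, and interferon-stimulated effectors at -1.54 and -0.85.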

How the data were processed

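RNA from HaCaT cells was prepared with the TruSeq RNA Sample Prep Kit and sequenced as paired reads of 150 bases. Per the labels the authors used TopHat, Cufflinks 2.1.1 and Cuffdiff, and they deposited FPKM per gene rounded to decimals. The genome build is not given in the sources used here. Columns of fold change, p and q made by the authors were not used. All 17449 gene identifiers are in GENCODE release 29, which gave coordinates on GRCh38. Genes averaging an FPKM of 1 or more were fitted as log2(FPKM + 0.1) with limma 3.58.1 in R 4.3.3 (moderated variances with a trend, two-sided, Benjamini-Hochberg), with scripts tested on simulated data. Alternatives were pseudocounts of 1 and 0.01, no filter, a filter at an average FPKM of 5, scaling by the median ratio, fits over 9 or 15 libraries, a robust fit and leaving out each library. Fits of the other groups against control were added after seeing the data.

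Of 57 gene lists, 5 hold cell type markers. The text gives some of the genes its rule allows, which are the 12 largest changes each way against control, 8 against undoped particles and 6 between doses (each called, with no overlap and an average FPKM of 5 or more where higher), key genes of the lists, the 5 members of each list with the smallest p and the 3 against its majority, all members of lists of up to 12 genes, and TGFB1, TIMP1, COL1A1 and TGM2. The libraries and lists were chosen with earlier results of these data known. Promoters are the 250 bases before the RefSeq start, matched by symbol. FPKM of near-identical copies (metallothioneins, HSPA1A and HSPA1B, keratins, histones, HLA, SPRR and LCE genes, ferritins, ribosomal proteins) is uncertain, since reads can be shared. Some genes the rule allows are not reported here.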

Additional observations from a re-analysis of the deposited data

Results flagged for a closer look

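The genes given here were called in opposite directions against control in cells given Li-doped Ag2S NPs at 160 μg/mL and in another particle group, both as deposited and with scaled libraries, and the direct difference between the particle groups passed limma's test by more than 1.5 on the log2 scale. Only genes that the naming rule allows were screened, and that rule picks some of them by the size of these same differences. The comparisons with control share their control libraries. Against undoped Ag2S NPs at the same dose, genes that fell with the Li-doped particle and rose with the undoped one had log2 differences of -4.50 for AMTN, -7.06 for CCL2, -6.17 for CCL7, -2.44 for ITGB6, -3.16 for MMP13, -4.05 for OASL and -1.80 for S100A9. With undoped particles against control, the log2 fold changes were 2.70 for AMTN, 1.98 for CCL7 and 1.37 for ITGB6. Those of CCL2 (0.39), MMP13 (0.27), OASL (0.50) and S100A9 (0.51) were smaller than their falls with the Li-doped particle (-6.66, -2.89, -3.56 and -1.29). AMTN encodes amelotin of the junctional epithelium and was at an FPKM of 24.7, 27.5 and 24.6 with undoped particles, 4.02, 4.37 and 3.25 in control and 1.72, 0.51 and 1.21 with Li-doped particles. OASL, an interferon-stimulated gene, was at 43.9, 47 and 51.5 with undoped particles and 2.29, 3.14 and 2.91 with Li-doped particles. In the other direction the log2 differences were 1.86 for CXCL8, 3.31 for DDIT3, 3.16 for HK2 and 2.13 for MYC, so these genes rose with the Li-doped particle and fell with the undoped one.

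Between the doses of Li-doped Ag2S NPs, the log2 difference of 160 minus 320 μg/mL was -2.81 for AMTN, -4.77 for KRT1 and -4.35 for OASL, genes that fell at 160 μg/mL and rose at 320 μg/mL. It was 2.67 for CXCL8 and 1.91 for TXNRD1, genes that rose at 160 μg/mL and fell at 320 μg/mL. Against control, the log2 fold changes at 320 μg/mL were 1.01 for AMTN, 1.28 for KRT1, 0.79 for OASL, -1.80 for CXCL8 and -0.62 for TXNRD1. TXNRD1 was at 95.2, 91.7 and 80 at 160 μg/mL, 26.1, 22.9 and 21.8 at 320 μg/mL and 35.7, 33.2 and 39.9 in control. AMTN, CXCL8 and OASL meet the condition in both comparisons.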

How the results depend on the processing

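Counts of genes higher and lower in the comparisons kept within 1.5 times of the reported ones under every alternative, apart from rises over 2-fold against control, which were 1578 with no filter on low values and 551 where genes had to average an FPKM of 5. The first tests more low genes and the second fewer. Leaving out each library gave 2601 to 3084 rises and 4576 to 4990 falls against control, 2151 to 2536 higher and 3057 to 3612 lower against undoped particles, and 2267 to 2864 higher and 2057 to 2188 lower between doses. Of 324 genes with values in the text 291 kept direction and call against control under every alternative that could test them. The filter at an FPKM of 5 tested 291 of them and the fit over 15 libraries 323.

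The log2 size of changes in genes near 0 in 1 group depended on the pseudocount of 0.1, although direction and call did not. For CALB2, CCL7 and ATP6V1B1 the change against control was smaller with a pseudocount of 1 and larger with 0.01. Scaling moved the size of these 3 changes less than either pseudocount did. Scaling by the median ratio, which removes the median shift, had the most effect on direction and call against control. It turned the log2 fold change to 0.10 for COL17A1, 0.17 for KRT10, 0.07 for MDM2, 0.01 for NFE2L2, 0.11 for SLFN5 and 0.0038 for SQLE, and the list median to 0.06 for p53 target genes, 0.15 for TGF-β ligands, receptors and SMADs, 0.12 for junctions, 0.10 for lysosome genes and 0.07 for the proteasome. Among genes that kept their direction it ended 16 calls, among them MT2A, KRT5, PLAU and HLA-B. The call of NFE2L2, which turned, ended too. It gave 9 calls, ABCG1, COL4A2, DSP, LAMP1, LCN2, MTF1, SQSTM1, TGFBR2 and TRIM25. Where genes had to average an FPKM of 5, the list median was 0.03 for G1 control and -0.72 for Wnt feedback targets. KRT10 was at 0.01 without control library 1 and at 0.04 and 0.11 without treated library 11 or 12 (range over libraries left out -0.19 to 0.11), and LAMP1 at -0.0018 without treated library 12. Between doses MKI67 was at -0.00063 with a pseudocount of 1, -0.07 with scaled libraries, and -0.07 and -0.12 without library 12 or 15 (range over libraries left out -0.12 to 0.09). None of these turned gene values passed the test, and list medians have no test.

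FOSB, HARS, ITGAV, LTBP2, MCL1, MT2A, NFE2L2, NOB1, RPL22 and SOCS3 lost their call against control without at least 1 library, with adjusted p up to 0.171. COL4A2, LCN2, MT1F, SQLE and SQSTM1 gained one without 1 treated library. The cause of these changes was not tested. No paired analysis was possible because the replicate numbers of the labels differ between all groups. Depth is unknown, so no counting error can be given for low values.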

Other observations

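Other lists are given here by their counts, to be read against 24.0% of all genes rising and 42.2% falling. The lysosome, proteasome and junction lists lay near those shares, and their medians turned with scaled libraries. Of 42 genes of lysosome, proton pump and autophagy 8 rose and 18 fell in treated cells, and with scaled libraries 19 rose and 12 fell. The cathepsin gene CTSH was at 663, 664 and 668 in control and 253, 234 and 264 in treated cells and the sialidase gene NEU1 went from 67.8 to 30.8, while the autophagy genes WIPI1 (from 8.49 to 29.1) and MAP1LC3B (from 61 to 81.2) rose. The membrane protein gene LAMP1 was at 315, 314 and 321 in control and 319, 313 and 342 in treated cells and the autophagy receptor gene SQSTM1 at 808, 757 and 743 in control and 932, 780.0 and 967 in treated cells, and they passed the test only with scaled libraries (LAMP1 with a log2 fold change 0.22, adjusted p = 0.0157, SQSTM1 with a log2 fold change 0.40, adjusted p = 0.00617) and, for SQSTM1, without treated library 11 (adjusted p = 0.00464). Of 34 genes of the constitutive proteasome 6 rose and 16 fell, or 14 and 8 with scaled libraries. In junctions 8 of 25 rose and 11 fell, or 10 and 9 with scaled libraries. The gap junction gene GJB2 was at 10.6, 9.88 and 11.4 in control and 97, 99 and 106 in treated cells and rose, CLDN1 of tight junctions fell (from 464 to 315), and the desmosome gene DSP at 178, 181 and 174 in control and 170.4, 185 and 204 in treated cells passed the test only with scaled libraries (log2 fold change 0.25, adjusted p = 0.0251).

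Of 19 YAP targets 12 rose and 2 fell (ARHGEF17 at -1.13 and FOXF2 at -0.63). The coagulation initiator gene F3 was at 23.5, 21.1 and 22.7 in control and 262, 246 and 154 in treated cells, with the last treated library below the other two, and CYR61 went from 5.44 to 13.8, while CTGF stayed under the filter at 1.33, 1.08 and 1.02 in treated cells. Among Wnt feedback targets 10 of 18 rose and 7 fell, and 5 of the rises and 4 of the falls were larger than 2-fold. The median log2 fold change was 0.66, or -0.72 where genes had to average an FPKM of 5. The members named here are all from the falls. WNT10A was at 163, 149.5 and 147 in control and 50.2, 44 and 54.5 in treated cells and the receptor genes LGR4 (from 36.6 to 17.9) and LGR6 (from 8.81 to 2.55) fell. In the Notch list 6 of 16 rose and 9 fell, or 6 and 6 with scaled libraries. NOTCH1 (from 31.3 to 14.5), its ligand gene JAG2 (from 115 to 52) and target gene HES1 (from 39.7 to 22.1) fell, and HEY1 (from 3.39 to 6.65) rose. In the list of kallikreins and serine protease inhibitors 4 of 14 rose and 9 fell. KLK10 was at 174, 162 and 149 in control and 35.5, 29.3 and 29.1 in treated cells, PRSS22 went from 67.7 to 9.42 and the antileukoprotease gene SLPI rose (from 71 to 141). Of the S100 genes, 6 of 12 rose and 5 fell. Psoriasin gene S100A7 was at 55.3, 55.3 and 56.8 in control and 6.31, 6.01 and 5.36 in treated cells, S100A4 went from 104 to 32 and S100A2 from 746 to 1926. In the list of hyaluronan and surface proteoglycans 8 of 14 rose and 5 fell, and in the list of laminins, integrins and the hemidesmosome 11 of 19 rose and 6 fell. In the list of ID genes and the BMP pathway 5 of 18 rose and 10 fell.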
